A study of Mus musculus with 65 samples.

Results

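Cathepsin D (Ctsd) is an aspartic protease of the lysosome. It is made as an inactive precursor, carried from the Golgi by mannose 6-phosphate receptors and activated in the acid interior of the lysosome, where it degrades proteins delivered by endocytosis and autophagy. Neurons and microglia, the resident macrophages of the central nervous system, both contain it, and inherited loss of its activity causes a neuronal ceroid lipofuscinosis, a storage disease of neurons. Its level in the mouse spinal cord was followed here across age, diet and sex, on every feature (spotted clone) of the filter that carries Ctsd as its single gene symbol. There were 2 such features, 12531 and 12575, of 8448 features on the filter, and Ctsd was 1 of the 4209 genes with a feature of its own. The gene was chosen by a readout of these same arrays, its age differences in adult mice fed ad libitum, foremost that of 24 against 6 months, so the age differences of the ad libitum mice are given as a description with no p value. All other comparisons were tested, but the adult ad libitum mice that enter the diet comparisons and the juvenile comparison are the mice on which that choice rested.

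The spinal cords came from 65 C57BL/6 mice, each hybridised to its own nylon filter of cDNA clones. Mice on caloric restriction (CR) had received full feed until 13 weeks of age and then reduced steps of a fortified feed that ended at 60% of the control ration; they comprised 3 males and 5 females of 6 months, 5 and 5 of 16 months and 3 and 4 of 24 months. Mice fed ad libitum (AL) comprised 5 males and 5 females at each of these ages and 5 and 5 juveniles of 17 to 44 days. All were of 1 inbred strain, and the labels name no transgene and no drug. The tissue was whole spinal cord, so more cells that contain Ctsd and more transcript per cell cannot be told apart. Its defining markers lay on both sides of the array mean. Those above it included the neurofilament gene Nefl (mean Z scores of 1.07 and 0.896 at 2 features), the astrocyte connexin Gja1 (1.13) and the complement gene C1qb (0.437). Those below it included the astrocyte genes Slc1a3 (-0.388 and -0.780) and Clu (-1.36), the neuronal genes Slc17a6 (-0.292) and Gap43 (-0.165) and the microglial gene C1qa (-0.666). A Z score gives the signal of a feature in standard deviations (SD) from the mean of all features on the same filter, so 0 is the array mean, and the values carry no fold change.

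Facts of the whole series bear on every value below. Arrays 31, 32 and 33, from 6-month-old mice (a CR male, then a female on CR, then a male fed AL), stood apart from all the others, and each Ctsd difference that rests on them is given with and without them. The other 62 arrays fell into a first run of 41 and a second run of 21, which the labels do not name, and the second run held 3 of 7 CR mice and 6 of 10 AL mice of 24 months but, with arrays 31 to 33 counted, at 6 months only 2 of 8 on CR and only 2 of 10 AL mice. In addition, mean signal repeated over the filter in a cycle of 22 feature numbers, and both Ctsd features, 44 numbers apart, had position 13 of that cycle, as did 384 features in all (4.55%).

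In the genome assembly GRCm38.p6 the gene lies on chromosome 7, from 142375910 to 142387827, on the minus strand. The 250 bases before its annotated start are shown because they hold the short palindrome CACGTG, the core of an E-box element to which the lysosomal regulators of the MiT/TFE family are known to bind; capitals mark it, and the sequence is that of RefSeq (chr7:142387828-142388077, minus strand, 5′ to 3′).
Ctsd: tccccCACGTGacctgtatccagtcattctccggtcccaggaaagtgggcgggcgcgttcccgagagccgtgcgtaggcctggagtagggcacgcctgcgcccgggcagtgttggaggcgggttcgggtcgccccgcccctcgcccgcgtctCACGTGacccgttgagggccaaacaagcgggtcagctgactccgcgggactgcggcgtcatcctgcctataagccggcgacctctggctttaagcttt
The element began at bases 6 and 153 of this run, the second copy lying 92 bases from the start of the gene. Of 32851 promoters of this length, 6.02% held it at least once and 0.429% held 2 or more copies. Among 38 promoters of lysosomal genes with a feature on the filter, Ctsd itself included, 12 held it (31.6%) and 4 held 2 or more (10.5%). These were drawn from the cathepsins, hydrolases, membrane proteins, vacuolar ATPase and sorting factors described below, but do not cover every measured gene of those groups. A match of letters says nothing of binding in these cords.

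**Figure D1:**
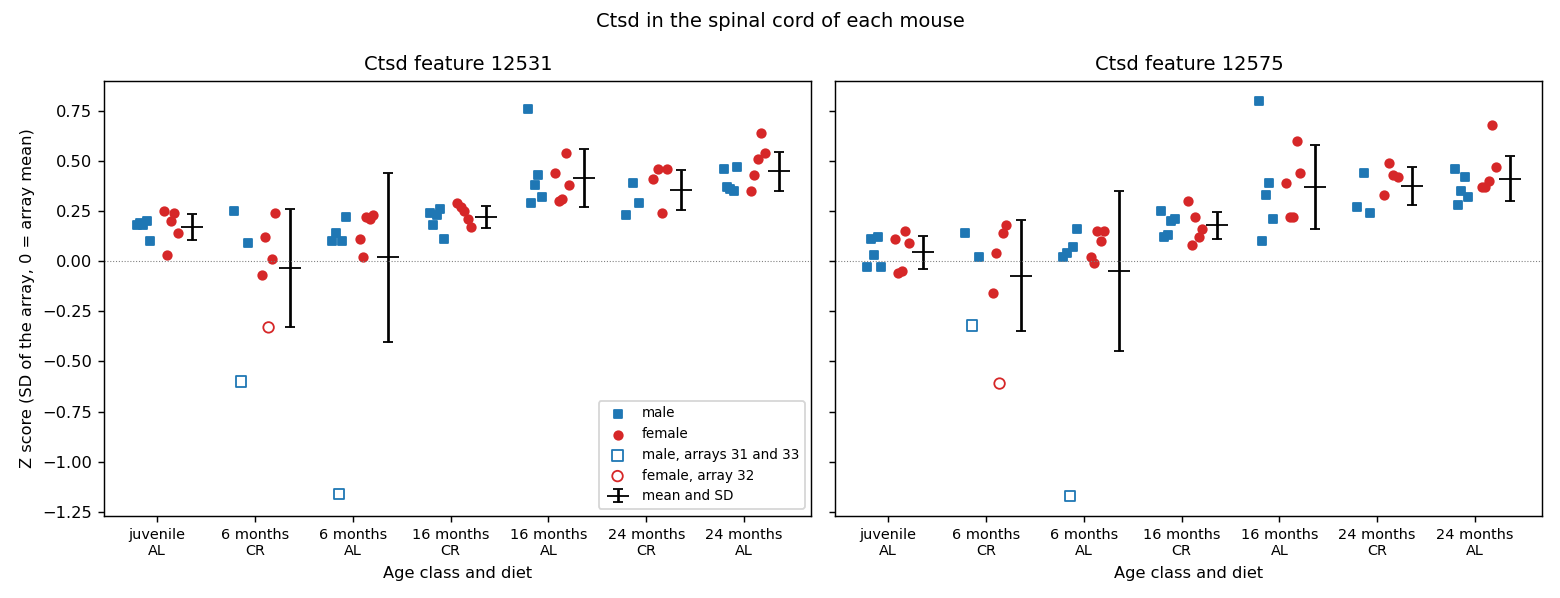
Z score (y axis, in SD of the array) of the 2 Ctsd features in every mouse, by age class and diet (x axis), with squares for males, circles for females, open symbols for arrays 31 to 33 and bars for the mean ± SD of all mice of a group. At both features the CR mice of 16 months (at most 0.29 and 0.30) lay low beside the AL mice of 16 months, and all mice of 24 months lay at 0.23 or higher.

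Ctsd signal was lowest and much alike in the juveniles and in the 6-month-old mice of both diets, and it was higher in the older mice. Taken as the mean of the 2 features and without arrays 31 to 33, the order of the levels ran from 0.0833 ± 0.117 in CR mice of 6 months (SD, n = 6) and 0.107 ± 0.0666 in juveniles (n = 10) over 0.114 ± 0.0679 in AL mice of 6 months (n = 9) and 0.200 ± 0.0480 in CR mice of 16 months (n = 10) to 0.364 ± 0.0860 in CR mice of 24 months (n = 7), 0.393 ± 0.174 in AL mice of 16 months (n = 10) and 0.430 ± 0.0976 in AL mice of 24 months (n = 10). The steps within the lowest 3 groups and within the highest 3 groups were smaller than the SD of a group. The step of 0.0860 up to the CR mice of 16 months and the step of 0.164 above them exceeded the SD of the groups on either side, although every pair of neighbours in this order still overlapped in range. With all 65 arrays the CR and AL mice of 6 months averaged -0.0537 ± 0.272 (n = 8) and -0.0140 ± 0.409 (n = 10), and the order of the older groups stayed as given.

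In CR mice Ctsd was higher at 24 than at 6 months at both features. These are other animals than the AL mice on which the choice of the gene rested. They share the array runs and the position on the filter with them. At feature 12531 the lowest, median and highest Z scores were 0.23, 0.39 and 0.46 in the 7 mice of 24 months and -0.60, 0.05 and 0.25 in the 8 mice of 6 months. At feature 12575 they were 0.24, 0.42 and 0.49 in mice of 24 months and -0.61, 0.03 and 0.18 in mice of 6 months. The groups did not overlap at feature 12575 and overlapped in 2 mice of 24 months at feature 12531. The 2 lowest mice of 6 months at each feature were those of arrays 31 and 32; without them the lowest values of 6 months were -0.07 and -0.16.

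The difference was 0.394 (SE 0.111, 95% interval 0.171 to 0.617) at feature 12531 and 0.435 (SE 0.113, interval 0.209 to 0.661) at feature 12575. In limma's moderated test over all 8448 features neither passed the threshold of an adjusted p of 0.05 (adjusted p = 0.456 and 0.374), in a comparison in which 0.0237% of features were called. Among all features, 27 had a larger positive difference than feature 12531 and 17 a larger one than feature 12575; without arrays 31 to 33 these numbers were 366 and 197. Without arrays 31 to 33 the differences were 0.225 (SE 0.0572) and 0.302 (SE 0.0706), with adjusted p = 0.147 and 0.141, where 0.0355% of features were called. With the array run as a covariate in addition, feature 12575 passed (0.329, SE 0.0699, adjusted p = 0.0420) and feature 12531 did not (0.224, SE 0.0586, adjusted p = 0.159), beside 0.0473% of features called. Centring each array on the 22 positions on top of this again let feature 12575 alone of the pair pass (0.338, adjusted p = 0.0369), with 0.0473% called.

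For Ctsd as a single value, the mean of the 2 features was 0.364 ± 0.0860 in CR mice of 24 months and -0.0537 ± 0.272 in CR mice of 6 months (SD, n = 7 and 8). All 7 older mice (0.250 to 0.475) lay above all 8 younger mice (-0.470 to 0.210), and an exact permutation test (both tails) gave p = 0.000311, the smallest that 7 against 8 mice allow. Without arrays 31 and 32 the mean of the younger mice was 0.0833 ± 0.117 (n = 6), and the exact permutation p was 0.00117, again the smallest possible. This p is not adjusted over the filter. Within the first run the differences were 0.198 and 0.280 at features 12531 and 12575 (4 mice of 24 and 6 of 6 months), and the second run held no CR mouse of 6 months once arrays 31 and 32 were left out. By sex and without these arrays, the differences were 0.133 and 0.237 in males (3 mice of 24 and 2 of 6 months). In females they were 0.317 and 0.367 (4 and 4 mice). The fits above weighted the sexes equally, and the difference between the sexes was not tested in CR mice alone.

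Between 16 and 6 months of age the CR mice differed less. At feature 12531 the CR mice of 16 months ran from 0.11 over a median of 0.235 to 0.29, and at feature 12575 from 0.08 over 0.18 to 0.30. All 10 lay above the mean of the CR mice of 6 months at either feature, and 3 and 5 of them lay above the highest mouse of 6 months. The differences were 0.267 (SE 0.102, adjusted p = 0.689) and 0.247 (SE 0.103, adjusted p = 0.709), with 0.0% of features called by limma and 583 features at an unadjusted p under 0.05. Without arrays 31 to 33 they were 0.0985 (interval -0.00814 to 0.205) and 0.114 (interval -0.0175 to 0.246), less than the main values by over 1.5 times, and the adjusted p was 1.0 for each.

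The step between 24 and 16 months in CR mice was 0.127 (SE 0.104, interval -0.0821 to 0.336) at feature 12531 and 0.188 (SE 0.106, interval -0.0242 to 0.400) at feature 12575 (adjusted p = 0.842 and 0.821; limma called 0.0% of features, with 436 at an unadjusted p under 0.05). At both features the 7 oldest mice all exceeded the 16-month mean, and 4 and 5 of them lay above the highest mouse of 16 months. This step holds no mouse of arrays 31 to 33, and without them in the fit its SE shrank to 0.0491 and 0.0606 (adjusted p = 0.297 and 0.241). It was 0.0964 and 0.146 in the first run and 0.170 and 0.277 in the second run, in which the 3 CR mice of 24 months (0.39 to 0.46 and 0.33 to 0.49) lay above the 3 of 16 months (0.23 to 0.27 and 0.08 to 0.22) without overlap at either feature.

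In AL mice, the animals on which the choice of the gene rested, feature 12531 spanned -1.16 to 0.23 at 6 months (median 0.125), 0.29 to 0.76 at 16 months (median 0.38) and 0.35 to 0.64 at 24 months (median 0.445). Feature 12575 spanned -1.17 to 0.16 at 6 months (median 0.055), 0.10 to 0.80 at 16 months (median 0.36) and 0.28 to 0.68 at 24 months (median 0.385). At 24 months every AL mouse lay above every AL mouse of 6 months at both features. At 16 months the same held at feature 12531 and for 9 of 10 mice at feature 12575. The lowest value of 6 months was in each case array 33, the next lowest being 0.02 and -0.01.

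The difference between 24 and 6 months in AL mice was 0.429 (SE 0.0941) and 0.459 (SE 0.0955), and without arrays 31 to 33 it was 0.299 (SE 0.0457) and 0.335 (SE 0.0563). Between 16 and 6 months it was 0.396 (SE 0.0941) and 0.417 (SE 0.0955), against 0.266 and 0.293 without these arrays. The remaining difference of 24 minus 16 months was 0.0330 and 0.0420, less than its SE of 0.0941 and 0.0955. It was -0.0283 and 0.0108 in the first run (4 mice of 24 and 6 of 16 months) and 0.127 and 0.147 in the second (6 and 4 mice), and the difference between the runs was not tested. The AL mice of 16 months were the most widely spread of the older groups, with an SD of 0.144 and 0.208, and the highest of all 65 values at both features belonged to male replicate 1 of this group (0.76 and 0.80, array 9).

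**Figure D2:**
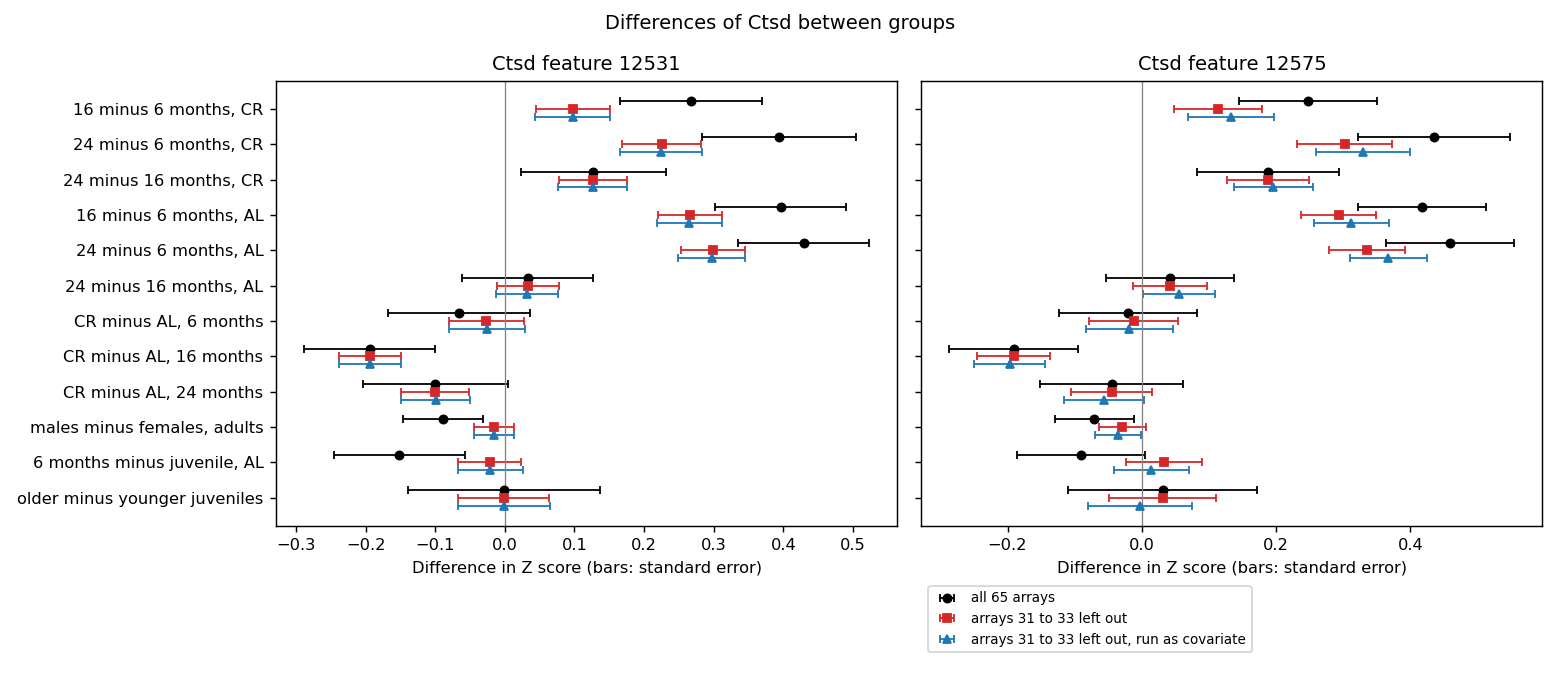
Differences in Z score (x axis) between groups for the 2 Ctsd features, as the group named first minus the group named second, with bars of 1 standard error, for all 65 arrays (black circles), without arrays 31 to 33 (red squares) and with the array run as a covariate in addition (blue triangles). Without arrays 31 to 33 the differences against mice of 6 months are smaller (0.225, against 0.394 with all arrays, for 24 minus 6 months in CR mice at feature 12531).

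At 16 months all 10 CR mice had a Ctsd signal below the mean of the AL mice at both features, but the difference between the diets did not pass the test over the filter. At feature 12531 the CR mice ran from 0.11 to 0.29 and the AL mice from 0.29 to 0.76, so that the groups met at a single value. At feature 12575 they overlapped, with 0.08 to 0.30 in CR mice and 0.10 to 0.80 in AL mice. The means were 0.221 ± 0.0545 and 0.415 ± 0.144 at feature 12531 and 0.179 ± 0.0685 and 0.370 ± 0.208 at feature 12575 (SD, n = 10 each, CR before AL). The difference was -0.194 (SE 0.0941, interval -0.383 to -0.00543) and -0.191 (SE 0.0955, interval -0.382 to 0.000433), and neither passed the test over all features (adjusted p = 1.0 for each; limma called 0.0% of features, with 63 at an unadjusted p under 0.05). With arrays 31 to 33 left out, the SE fell to 0.0443 and 0.0547 and the adjusted p was 0.5 and 1.0. Of the 8448 differences in this comparison, 8389 lay above that of feature 12531 and 8387 above that of feature 12575, which places both among the most negative. The gene was chosen for high values in older AL mice, these of 16 months among them, so this rank is a description only.

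The difference at 16 months had the same sign in each sex and each run but not the same size, and its difference between sexes or runs was not tested. In males it was -0.232 and -0.184 and in females -0.156 and -0.198 at features 12531 and 12575. It was -0.270 and -0.277 in the first run (7 CR and 6 AL mice) and -0.0700 and -0.0742 in the second (3 and 4 mice). Leaving out single mice moved it between -0.212 and -0.153 at feature 12531 and between -0.224 and -0.137 at feature 12575.

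No difference between the diets was called at the other ages. At 6 months CR mice differed from AL mice by -0.0653 (SE 0.102, interval -0.269 to 0.138) and -0.0207 (SE 0.103, interval -0.227 to 0.186), with adjusted p = 0.931 and 0.989 and 0.0237% of features called. These were -0.0265 and -0.0123 without arrays 31 to 33. Leaving out single mice moved them between -0.195 and 0.063 and between -0.145 and 0.046, so the sign was not stable; both lowest values came without AL male replicate 3 (array 33) and both highest without CR male replicate 2 (array 31). At 24 months they were -0.100 (SE 0.104, interval -0.309 to 0.109) and -0.0449 (SE 0.106, interval -0.257 to 0.167), with adjusted p = 0.801 and 0.947; limma called 0.0% of features, with 627 at an unadjusted p under 0.05. The sign at 24 months was not the same in each run at feature 12575, where it was -0.143 in the first run (4 CR and 4 AL mice) and 0.0550 in the second (3 and 6 mice). The 24-month-old CR males were 673 days old, younger than the CR females of 703 to 743 days and the AL mice of 704 to 743 days. Their values were 0.23, 0.29 and 0.39 at feature 12531, against 0.41, 0.46, 0.24 and 0.46 in the CR females. Age and sex cannot be told apart in this group.

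The step between 24 and 6 months was not shown to depend on diet. The CR step minus the AL step was -0.0348 (SE 0.146, interval -0.327 to 0.257) at feature 12531 and -0.0242 (SE 0.148, interval -0.321 to 0.272) at feature 12575 (adjusted p = 0.999 for each; limma called 0.0% of features, with 132 at an unadjusted p under 0.05). With arrays 31 to 33 left out, the difference of the steps was -0.0736 (interval -0.221 to 0.0734) and -0.0327 (interval -0.214 to 0.149). Its sign turned with single mice, over a range of -0.163 (without CR male replicate 2, array 31) to 0.0952 (without AL male replicate 3, array 33) at feature 12531 and, for the same mice, of -0.0909 to 0.1 at feature 12575. The AL step in this difference is the one on which the gene was chosen.

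No difference between adult males and females was called. Males lay at a mean of 0.202 ± 0.359 and females at 0.274 ± 0.206 at feature 12531, and males at 0.172 ± 0.341 and females at 0.231 ± 0.251 at feature 12575 (SD, n = 26 and 29). The difference of males minus females, with groups weighted equally, was -0.0886 (SE 0.0578) and -0.0707 (SE 0.0587), with adjusted p = 0.984 for each; limma called 0.0% of features, with 291 at an unadjusted p under 0.05. Of arrays 31 to 33, 2 are males, and without the 3 the difference was -0.0160 (interval -0.0733 to 0.0412) and -0.0291 (interval -0.0997 to 0.0416). The step between 24 and 6 months was larger in males by 0.0887 (SE 0.146) and 0.0182 (SE 0.148) over all arrays, but smaller in males, with differences of -0.129 (SE 0.0732) and -0.107 (SE 0.0903), once arrays 31 to 33 were left out. Neither was called (adjusted p = 0.999 for each with all arrays and 1.0 without the 3 arrays), and with all arrays limma called 0.0% of features, with 67 at an unadjusted p under 0.05.

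No difference between AL mice of 6 months and juveniles was called. At 6 months AL mice lay between -1.16 and 0.23 at feature 12531 (median 0.125) and between -1.17 and 0.16 at feature 12575 (median 0.055), and juveniles lay between 0.03 and 0.25 (median 0.185) and between -0.06 and 0.15 (median 0.060). The difference of 6-month-old mice minus juveniles was -0.152 (SE 0.0941) and -0.0910 (SE 0.0955), with adjusted p = 0.986 for each in a comparison in which 0.13% of features were called. It was -0.0220 (interval -0.114 to 0.0697) and 0.0333 (interval -0.0798 to 0.146) without arrays 31 to 33. Among the juveniles themselves, the 5 mice of 33 to 44 days averaged 0.170 ± 0.0529 and 0.0580 ± 0.0832, and the 5 mice of 17 to 21 days 0.172 ± 0.0835 and 0.0300 ± 0.0851 (SD). The differences of -0.00167 (SE 0.138) and 0.0308 (SE 0.140) were not called (adjusted p = 1.0 for each; limma called 0.0% of features, with 183 at an unadjusted p under 0.05).

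The first steps of the selection in the study's methods, which take features of a mean Z score above 0, an unadjusted p under 0.05 and a z-ratio of at least 1.5 (a difference scaled by the SD of the differences of every feature), selected more. A further step of the methods, an analysis over age, sex and diet together, was not applied here. The first steps selected both Ctsd features in CR mice for 24 against 6 months (z-ratios 3.29 and 3.75) and for 16 against 6 months (2.60 and 2.53), feature 12575 for 24 against 16 months (2.12), and both for CR against AL mice at 16 months (-2.91 and -2.86). They selected 3.36%, 0.722%, 2.47% and 0.982% of all features in these 4 comparisons. At 24 months, 274 of the 284 features selected against 6 months and 199 of the 209 selected against 16 months were lower, unlike Ctsd. For 16 against 6 months 34 were higher and 27 lower, and for the diets at 16 months 44 and 39. In the limma fits without arrays 31 to 33, the CR difference of 16 against 6 months fell to 0.0985 and 0.114. That of 24 against 6 months fell to 0.225 and 0.302. The first steps were applied to all arrays only. They did not select feature 12531 for 24 against 16 months in CR mice (z-ratio 1.45), nor either feature for CR against AL mice at 6 or 24 months, for the sexes or for either juvenile comparison.

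**Figure D3:**
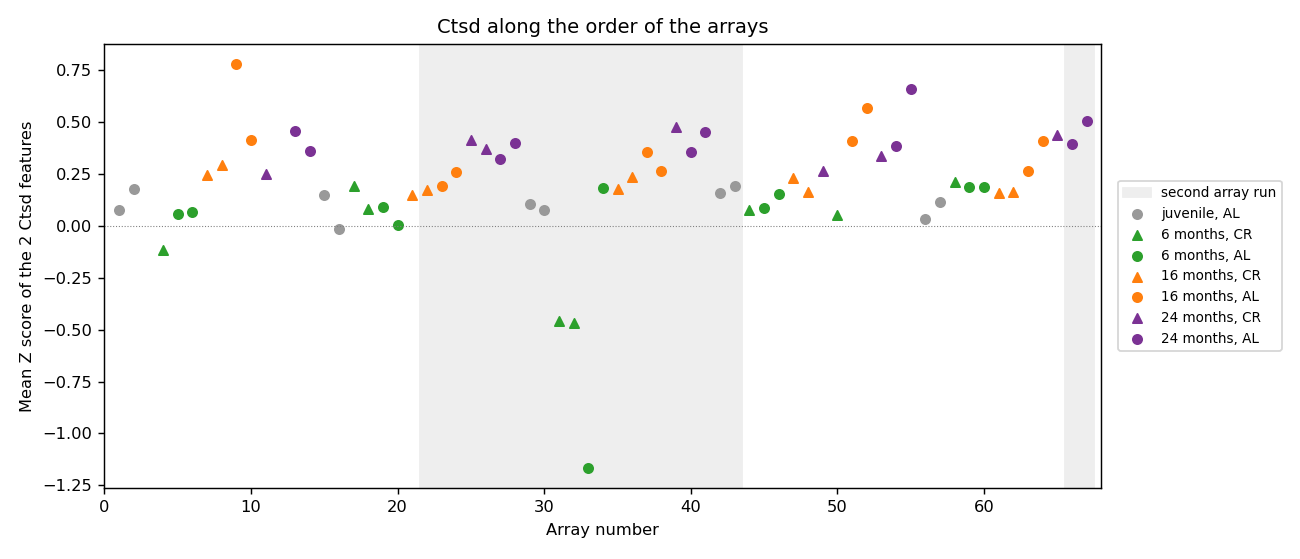
Mean Z score of the 2 Ctsd features (y axis) against the array number (x axis), with colours for age class, triangles for CR and circles for AL mice, and grey bands for the second array run. Arrays 31, 32 and 33 lie at -0.460, -0.470 and -1.165, below all the others, and the mice of 24 months lie at 0.250 or higher in both runs.

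The 2 features followed each other closely from mouse to mouse. With the group means removed, they correlated with Pearson's r = 0.912 and Spearman's rho = 0.809 over 65 mice (permutation p = 1e-05 for each, the smallest that 100000 resamples give). The 9 such correlations computed are of this same pair under different settings and in overlapping mice, so they are not separate tests. Of the 9, 8 had this p for r, and the largest permutation p after Benjamini-Hochberg adjustment was 0.00758. Without the 2 mice farthest from the median, which were those of arrays 31 and 33, r was 0.841. Without arrays 31 to 33 it was 0.791, and without a further 2 mice 0.743. It was 0.837 over the 41 mice of the first run and 0.567 over the 21 mice of the second (rho = 0.625, permutation p = 0.00758 for r). Feature 12575 tended to lie below feature 12531 in the juveniles, where the mean was 0.0440 against 0.171, but not in the CR mice of 24 months, where it was 0.374 against 0.354.

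**Figure D4:**
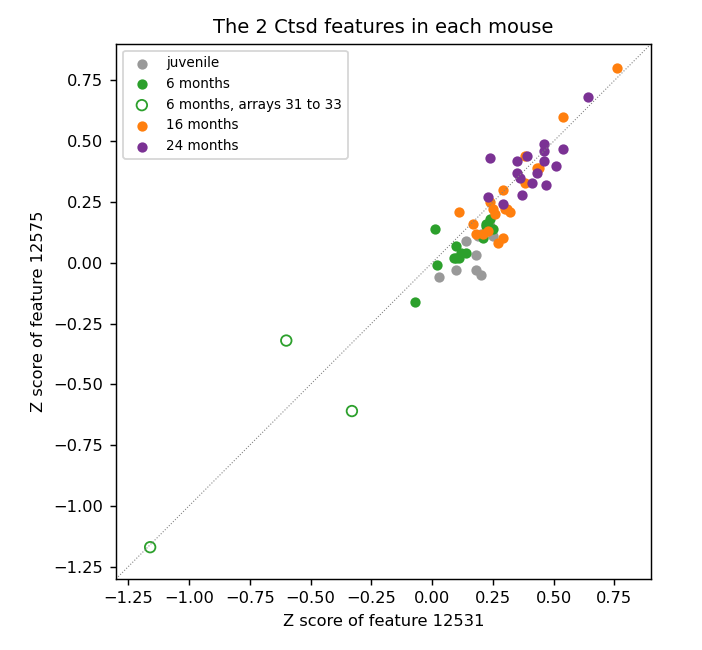
Z score of Ctsd feature 12575 (y axis) against feature 12531 (x axis) in each of the 65 mice, coloured by age class, with the line of equal values dotted and open circles for arrays 31 to 33. The points follow the line, and the mice of 16 and 24 months fill its upper end.

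This agreement was set beside that of other features. After removal of group means and of the run, and without arrays 31 to 33, the Ctsd pair had r = 0.824, which ranked 73 among 842 pairs of features that share a gene symbol, against a median of 0.0885 over all pairs and of 0.567 over the 131 pairs that share a position. Features of other genes came near it. Feature 12509, annotated as Ganab, lies 22 numbers below feature 12531 at the same position, and it had r = 0.730 with feature 12531 and 0.781 with feature 12575. The feature between the 2 Ctsd features, 12553 (Smchd1), had 0.372 and 0.348. At the same position, Hadha (4 steps of 22 below feature 12531) had 0.615 with feature 12531 and 0.638 with feature 12575, and Numa1 (2 steps below) had 0.478 and 0.536. Slc25a37, which lies between Hadha and Numa1 (3 steps below), had 0.0279 and -0.018. Vps26a (5 steps below) had -0.0137 and -0.00358, and Niban1 (3 steps above) had 0.418 and 0.304. Smchd1, Slc25a37, Vps26a and Niban1 were picked for their place on the filter, with the values known. The remaining 382 features of position 13 had a median r of 0.0508 with feature 12531 and of -0.00153 with feature 12575.

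The genes whose signal was most like that of Ctsd across the 62 mice, as Pearson's r with the mean of its 2 features after centring each run, were Ganab (r = 0.907), Tbc1d8 (0.843), Hadha (0.817), Numa1 (0.792), C1qa (0.741), Nsmaf (0.657), Cst3 (0.652), Arap1 (0.593), Grn (0.592) and Rpl37a (0.578). These r values also carry the age difference that the mice share. Of the 10, 7 had position 13, and Cst3, Grn and Rpl37a had other positions. Over all other features the median r was 0.0213, and 27 of 8446 (0.320%) exceeded 0.5, among them 9 of the 382 other features of position 13 (2.36%). The part of the shared position in these likenesses was not tested. Centring every array on the positions left 9 of the 10 genes in place and 6 of the new 10 at position 13. Such centring removes only the mean of the 384 features of a position. A signal shared by a few of them stays in, so the centring cannot decide the part of the position. Without centring on the runs and with all 65 mice, 4 of the 10 remained. The other 382 features of the position had a median difference of 0.0346 between 24 and 6 months in CR mice without arrays 31 to 33, beside -0.00125 over all features, and 30 of them exceeded feature 12531. Over the whole filter 366 features exceeded it. With the array run as a covariate in addition, these medians were 5.36e-05 and 0.00154. Feature 12531 was then exceeded by 5 features of the position and by 102 of the whole filter. The lowest r values with the Ctsd mean belonged to Efcab14 (-0.566), Nsun3 (-0.522) and Nab1 (-0.514).

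Ganab, the catalytic subunit of the glucosidase II of the endoplasmic reticulum, was lowest at 6 months and higher at 16 and 24 months in both diets. Without arrays 31 to 33 it averaged -0.342 ± 0.0778 in CR and -0.346 ± 0.0309 in AL mice of 6 months, -0.190 ± 0.0959 in CR and -0.0810 ± 0.136 in AL mice of 16 months, and -0.0814 ± 0.0636 in CR and -0.0510 ± 0.0891 in AL mice of 24 months (SD). The CR mice of 6 and 24 months also entered the r values by which Ganab, Tbc1d8, Hadha and Numa1 were named. Their differences in CR mice are therefore a description and no separate support for that of Ctsd. At 24 against 6 months in CR mice, Ganab was higher by 0.316 (SE 0.0598, limma's adjusted p = 0.00944). Tbc1d8, whose product carries the domain of Rab-inactivating enzymes, was higher by 0.306 (SE 0.0565) at the same adjusted p. These were the 2 features called in that comparison, and both had position 13, which held 4.55% of all features. Without arrays 31 to 33, with or without the run as a covariate, every feature called in that comparison also had position 13. So did the 6 features called for 24 against 6 months in AL mice with all arrays, among them Ctsd, which was chosen on that difference. The part of the position in these calls was not tested. The differences fell to 0.267 (SE 0.0537) for Ganab and 0.275 (SE 0.0548) for Tbc1d8 once arrays 31 to 33 were left out, with an adjusted p of 0.0222 for each. Hadha of mitochondrial fatty acid oxidation was at 0.317 (SE 0.0581, adjusted p = 0.0118) without arrays 31 to 33, and at 0.405 (adjusted p = 0.496) with them. The spindle protein gene Numa1 had 3 features, of which only the one at position 13 was like Ctsd (r = 0.792, against 0.0119 and 0.253 for the others). Its CR difference at that feature was 0.271, against 0.0258 and 0.0879 at the others, without arrays 31 to 33. For CR against AL mice at 16 months, the 10 genes most like Ctsd all lay below 0, between -0.177 (Numa1, SE 0.0719) and -0.029 (Rpl37a, SE 0.119), with an adjusted p of 1.0 for each; the mice of this comparison also entered the r values by which these genes were named.

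The genes whose products work with Ctsd in the lysosome were read in the same way in CR mice of 24 against 6 months. Against the 0.0237% of features called over the filter (0.0355% without arrays 31 to 33) and the 736 of 8448 features at an unadjusted p under 0.05 (1060 without these arrays), counts of 0 to 2 in lists this short show nothing particular to a list. The only other measured cathepsins, of 17 listed with Ctsd, were Ctsa, the protective protein of lysosomal galactosidase and sialidase, and Ctsf, a cysteine protease. In CR mice of 24 against 6 months Ctsa differed by 0.0568 and Ctsf by 0.0374, and without arrays 31 to 33 Ctsa was at -0.0512 (SE 0.0423, adjusted p = 0.568) and Ctsf at -0.0388 (SE 0.0609, adjusted p = 0.777). Neither had an unadjusted p under 0.05. In AL mice these were -0.0435 and -0.0382 without the 3 arrays. Of the 4 inhibitor features, limma called 0. Cst3, cystatin C, which inhibits cysteine cathepsins rather than Ctsd, had the largest difference of the inhibitors in CR mice, 0.449 (SE 0.128, adjusted p = 0.464), or 0.256 (SE 0.0640, adjusted p = 0.141) without arrays 31 to 33. Its median Z score was 0.455 in CR mice of 6 months, 0.55 in those of 16 months and 0.68 in those of 24 months. It was the 1 inhibitor feature with an unadjusted p under 0.05.

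Of the other aspartic proteases, the presenilin gene Psen2 and the signal peptide peptidase-like genes Sppl2a, Sppl2b and Sppl3 were measured, and limma called 0 of 4 features in CR mice (0 with an unadjusted p under 0.05). Their median difference between 24 and 6 months in CR mice was 0.0685 without arrays 31 to 33 and 0.0380 with all arrays. The lysosomal hydrolases and their activators had 13 features of 11 genes, among them the glucosidase Gaa, the sulphatases Arsa and Arsb, the ceramidase Asah1, the thioesterase Ppt1 and the activator precursor Psap. In the same comparison 4 lay above and 9 below 0, with a median of -0.0258, beside a median of -0.00125 over all features, and 0 were called in limma (0 with an unadjusted p under 0.05). With all arrays 9 lay above 0 and the median was 0.0405. The smallest p values with all arrays belonged to the sulphatase Galns (-0.171, SE 0.104, adjusted p = 0.671) and the lysosomal nuclease Dnase2a (-0.0832, SE 0.0517, adjusted p = 0.685), which were at -0.109 (SE 0.103) and -0.0258 (SE 0.0507) without the 3 arrays.

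Of the listed carriers and sorting factors of lysosomal traffic, not all of which carry Ctsd, limma called 0 of 16 features of 14 genes in CR mice (0 with an unadjusted p under 0.05). With all arrays 13 lay above and 3 below 0 (median 0.0313), against 8 and 8 without arrays 31 to 33 (median 0.00375). M6pr, the cation-dependent mannose 6-phosphate receptor, had -0.0258 (SE 0.0527) and 0.0100 (SE 0.0598) at its 2 features; it was picked for its role, with the values known. Gnptab, which makes the mannose 6-phosphate tag, had the smallest p with all arrays (0.134, SE 0.0888, adjusted p = 0.712), and -0.0533 (SE 0.0680) without arrays 31 to 33. The vacuolar ATPase, which acidifies the lysosome, had 8 features, 0 called by limma (0 with an unadjusted p under 0.05), with 1 above and 7 below 0 and a median of -0.0313, without arrays 31 to 33, but with 8 of 8 above 0 with all arrays. The 1 above 0 was the catalytic subunit gene Atp6v1a (0.264, SE 0.189, adjusted p = 0.513). The 11 features of lysosomal membrane proteins and of Npc2, listed with them though not itself a membrane protein, had a median of 0.0822 with all arrays and 0.0354 without the 3, and 0 were called by limma (1 with an unadjusted p under 0.05 with all arrays, 2 without the 3). Of these, Cd63, a tetraspanin of late endosomes, was at 0.11 (SE 0.05, adjusted p = 0.369) and Npc2, which hands on cholesterol, at 0.198 (SE 0.0917, adjusted p = 0.379) at feature 13339 and 0.0379 at feature 9773. The abundant membrane protein Lamp1 had 0.101 (SE 0.159) and -0.00292 (SE 0.0430) at its 2 features.

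Genes of the neuronal ceroid lipofuscinoses, the disease group to which Ctsd belongs, had 7 features besides Ctsd and 0 calls by limma in CR mice (1 with an unadjusted p under 0.05, or 2 without arrays 31 to 33). Over the filter 0.0237% of features were called. An unadjusted p under 0.05 was seen at 736 of 8448 features, or at 1060 without these arrays, so such counts show nothing particular to these genes. Grn, the progranulin precursor of lysosomal granulins, was at 0.257 (SE 0.0718, adjusted p = 0.456) with all arrays and 0.150 (SE 0.0613, adjusted p = 0.337) without arrays 31 to 33, and its range was -0.72 to -0.57 in CR mice of 24 months and -1.41 to -0.63 in those of 6 months. Mfsd8, a lysosomal membrane transporter, was at 0.150 (SE 0.0633) without arrays 31 to 33. The regulators Mtor, Lamtor1, Lamtor3 and Flcn of lysosomal signalling and the 8 features of 7 autophagy genes gave 0 calls by limma, and 1 feature of each list had an unadjusted p under 0.05 without arrays 31 to 33, beside 1060 of 8448 over the filter. These were Lamtor3 (0.129, adjusted p = 0.338) and feature 14098 of the kinase gene Ulk2 (0.168, adjusted p = 0.277). With all arrays Lamtor3 was at 0.046 and feature 14098 at 0.089, neither with an unadjusted p under 0.05. The other Ulk2 feature, 10750, had such a p with all arrays (0.132, limma's adjusted p = 0.497) but not without the 3 (0.0925).

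**Figure D5:**
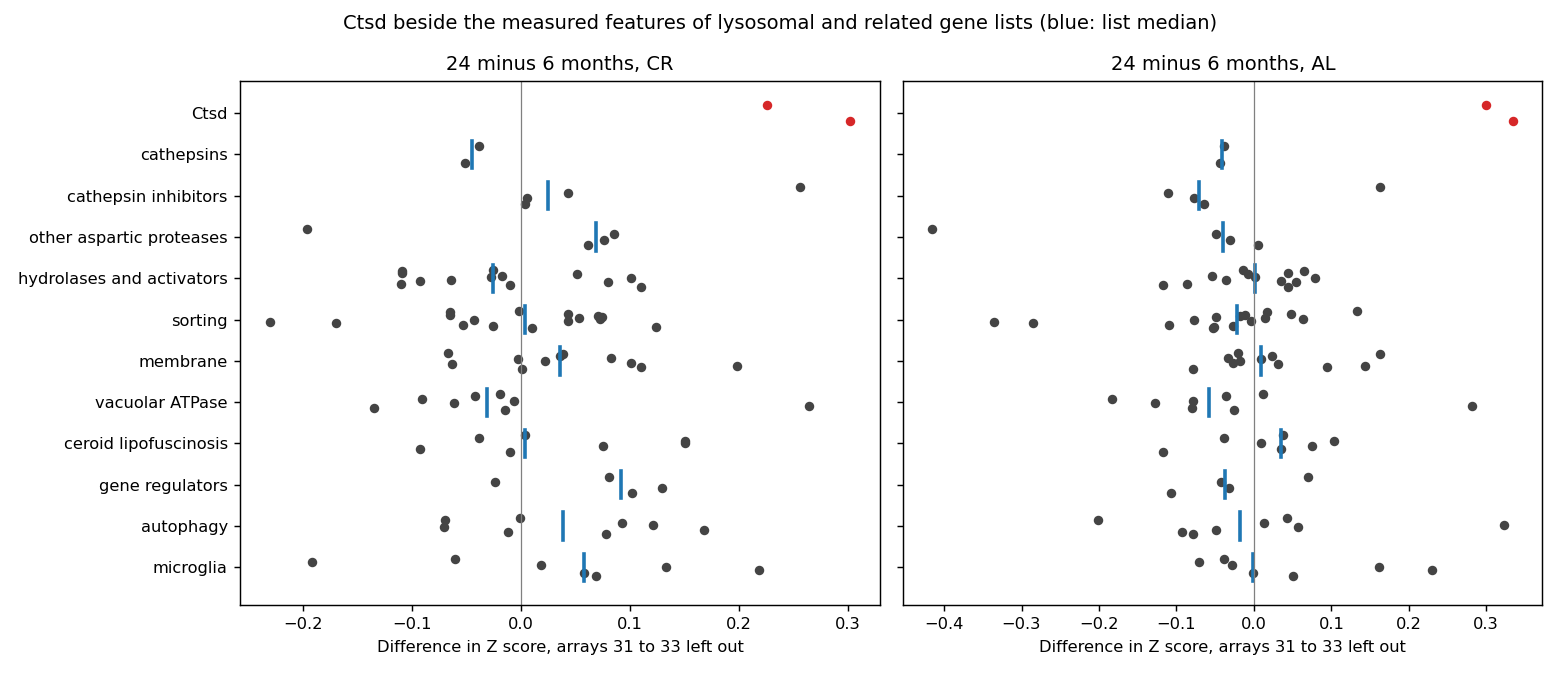
Difference in Z score between 24 and 6 months (x axis) in CR mice (left) and AL mice (right), without arrays 31 to 33, for the 2 Ctsd features (red) and the features of lysosomal and related gene lists (grey, 1 point a feature, rows by list), with the list median in blue. In CR mice the Ctsd features lie at 0.225 and 0.302 and the 2 features of other cathepsins at -0.0512 and -0.0388.

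Markers of microglia, which are rich in lysosomes, were read beside these values. Of 34 listed genes 7 were measured, each by 1 feature: C1qa, C1qb, C1qc, Fcgr1, Fcgr3, Fcer1g and Cd74. Their mean Z score per mouse ran from 0.0629 to 0.266 (median 0.199) in CR mice of 6 months, from 0.0171 to 0.289 (0.207) in those of 16 months and from 0.0829 to 0.340 (0.266) in those of 24 months. In AL mice it ran from -0.236 to 0.250 (0.211) at 6 months, from 0.0786 to 0.314 (0.238) at 16 months and from 0.176 to 0.326 (0.254) at 24 months, so the groups overlapped in both diets. In CR mice of 24 against 6 months 5 of 7 lay above 0 and 0 were called by limma. With all arrays 1 had an unadjusted p under 0.05, beside 736 of 8448 features. The median difference was 0.0812, or 0.0575 without arrays 31 to 33. C1qa had 0.258 (SE 0.0731, adjusted p = 0.459), and 0.218 without these arrays. C1qb had 0.0956 and 0.133, C1qc 0.0535 and 0.0683, Fcgr1 0.118 and 0.0183, and Fcgr3 0.0812 and 0.0575. Fcer1g (-0.0311 and -0.0612) and Cd74 (-0.0587 and -0.192) lay below 0. Without these arrays C1qa and Cd74, in opposite directions, had an unadjusted limma p under 0.05. In AL mice C1qa was the 1 feature of the lists that was called (0.286, SE 0.0619, adjusted p = 0.0414), beside 0.071% of all features, but it did not pass without arrays 31 to 33 (0.230, SE 0.0530, adjusted p = 0.0833). In that setting C1qb (0.162) and C1qc (0.0505) also lay above 0 in AL mice. Cd74 (-0.071), Fcer1g (-0.039), Fcgr1 (-0.0278) and Fcgr3 (-0.00175) lay below it. C1qa, like Ctsd, had position 13. The part of microglia in the Ctsd differences was not tested.

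Markers of the other cell types of the cord gave 0 calls by limma in CR mice of 24 against 6 months, in lists as short as those above. The median difference without arrays 31 to 33 was 0.0929 over 7 features of astrocyte genes (1 with an unadjusted p under 0.05), 0.0458 over 3 of oligodendrocyte genes (1 such feature), -0.0885 over 6 of neuronal genes, 0.0279 over 14 of meningeal and fibroblast genes and -0.0765 over 20 of blood genes (0 such features in each of these 3). With all arrays these medians were 0.0803 for astrocytes, 0.0738 for oligodendrocytes, 0.106 for neurons, 0.0490 for meninges and -0.00883 for blood. Schwann cell, muscle and vascular markers were represented by 1, 2 and 2 features. The part of these cells in the Ctsd differences was not tested either.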

How the data were processed

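Spinal cord RNA of 65 mice was labelled with 33P per the labels (32P in the study's methods) and hybridised to 1 nylon filter per mouse. The deposited values are a score: per the labels and the study's methods, the authors extracted spot intensities with ArrayPro and turned them into Z scores within each array, so each array has mean 0 and SD 1; the log base and background treatment are not given in the sources used here. No counts or depths exist, and the number of arrays limits precision. Scores were used as deposited (8448 features, 0 columns left out). The 2 features were found by gene symbol in the platform annotation.

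Differences were fitted with limma 3.58.1 (R 4.3.3): lmFit and eBayes on 14 group means of age class, diet and sex, sexes weighted equally, Benjamini-Hochberg adjustment over all features, adjusted p under 0.05 as the threshold. The fit was tested on simulated data. Whether mice of a group shared a litter is not given, so p values measure only the spread between these mice. Runs were read from the first principal component (36% of the variance without arrays 31 to 33, 95.8% of it between the runs). Correlations and exact permutation tests used scipy 1.17.1. Named genes were the Ctsd features, the 10 genes most and 3 least like them, all measured cathepsins, and of each list the features past the test or otherwise 2 to 4 with the smallest p in CR mice. The gene, the lists and the tests were chosen with earlier results of these data known.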

Additional observations from a re-analysis of the deposited data

Results flagged for a closer look

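The spread of each Ctsd feature was examined in every group of 4 to 10 mice, 38 groups of values in all, and in 7 of them a single mouse lay farther from the others than Dixon's criterion allows; chance flags about 1 in 20. AL male replicate 3 of 6 months (array 33) accounted for 4 of the 7, with -1.16 at feature 12531 and -1.17 at feature 12575, against 0.10 to 0.22 and 0.02 to 0.16 in the other 4 males and 0.02 to 0.23 and -0.01 to 0.16 in the other 9 AL mice of 6 months. AL juvenile male replicate 5 (array 56) was low at feature 12531 with 0.10, against 0.18 to 0.20 in the other juvenile males. AL male replicate 1 of 16 months (array 9) was high at feature 12531 with 0.76, against 0.29 to 0.54 in the other AL mice of 16 months. AL female replicate 4 of 24 months (array 55) was high at feature 12575 with 0.68, against 0.28 to 0.47 in the other AL mice of 24 months.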

How the results depend on the processing

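The differences of both Ctsd features were recomputed without arrays 31 to 33, with the run as a covariate, with both of these, with the round of arrays as a block, after centring on positions (alone and with both), after quantile normalization, with array weights, whose fit stopped before full convergence, on features of a mean Z score above 0, under the first steps of the study's rule and without each mouse in turn. In CR mice for 24 against 6 months, feature 12575 passed when arrays 31 to 33 were dropped and the run was fitted (0.329), also with position centring (0.338), and under the study's rule (0.446), as did feature 12531 under that rule (0.391). The rule also selected 16 against 6 months in CR mice (0.257 and 0.250) and feature 12575 for 24 against 16 months (0.195). It also selected CR against AL mice at 16 months (-0.194 and -0.191). The rule was applied to all arrays only, and it adjusts no p over the filter. No other setting changed a call. Without single mice, the CR difference of 24 against 6 months ran from 0.266 to 0.478 at feature 12531 and from 0.368 to 0.483 at feature 12575, with adjusted p between 0.137 and 0.859. For 16 against 6 months it ran from 0.139 to 0.351 and from 0.180 to 0.295, the lowest without CR male replicate 2 (array 31). The small differences of CR against AL mice at 6 months and of the steps between 24 and 6 months in CR against AL mice turned sign without single mice. The AL difference of 24 against 6 months ran from 0.299 to 0.471 and from 0.335 to 0.501. No paired analysis was possible because the labels give the mice no replicate numbers; the round, read from the array numbers, was fitted as a block and changed no call. Signal over background cannot be read from Z scores. The permutation test without arrays 31 and 32, the likeness of the features within each run or without arrays 31 to 33 and 2 further mice, and the reading of neighbours in steps of 22 features were chosen after seeing the data.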
